A study of Mus musculus with 18 samples.

Results

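The proliferation genes described here are 10 genes whose transcripts are made mainly while a cell copies its DNA and divides: Mki67, Top2a, Ccna2, Ccnb1, Ccnb2, Cdk1, Birc5, Rrm2, Bub1 and Aurkb. Probe sets annotated to exactly 1 of these symbols were averaged per gene, which gave values for 9 of the 10 genes from 134 of the 212138 probe sets with 1 symbol, within a table of 20358 genes. The number of probe sets was 16 for Mki67, 40 for Top2a, 9 for Ccna2, 10 for Ccnb2, 9 for Cdk1, 6 for Birc5, 9 for Rrm2, 25 for Bub1 and 10 for Aurkb. Ccnb1 had 0 such probe sets and is not analysed here, and Cdk1 was listed under its older symbol Cdc2a. The list was chosen by a value of these same arrays, the higher Mki67 level in fat of MKR mice. Both MKR and WT fat entered that choice. Every comparison with a fat group is therefore a description: no p-value of a member is given there, counts of calls are printed beside the share of all genes called without being read as results, and the tests concern liver and muscle.

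Fat (the labels write adipose), liver and skeletal muscle of male FVB/N mice aged 10 weeks were compared between 3 MKR mice and 3 wild type (WT) mice. All 3 tissues came from the same animals, so that there were 6 groups of 3 arrays: MKR fat, WT fat, MKR liver, WT liver, MKR muscle and WT muscle. MKR mice express, as a transgene in skeletal muscle, a human IGF-1 receptor with dominant-negative action, and serve as a model of type 2 diabetes mellitus (T2DM). Fat and liver are thus not the tissues the transgene was aimed at, all 3 tissues are mixtures of cell types, and in such bulk RNA more cycling cells and more RNA per cycling cell cannot be told apart.

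In a dividing cell, E2F factors turn on the genes of DNA synthesis in late G1, and the genes of G2 and mitosis follow later. In resting cells the DREAM complex keeps both groups silent, partly through a promoter element called the CHR (cell cycle genes homology region), and MYB, FOXM1 and NF-Y, which binds CCAAT boxes, act on the later genes. Most cells of adult liver, muscle and fat are not cycling, and the dividing cells known in adult fat include progenitors, endothelial cells and macrophages.

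Values are log2 intensities, so that a difference of 1 is a doubling. The deposited numbers lie where log2 intensities transformed to log2 again would lie, so 2 to the power of each was taken, a scale inferred from the values. Each gene's level is compared only with itself across arrays. Over all genes the array medians lay between 5.46 and 5.61. The labelled tissues were borne out by Adipoq (10.38 to 11.61 in the 6 fat arrays and at most 6.69 elsewhere), Alb (12.83 to 12.97 in liver and at most 9.89 elsewhere) and Ckm (10.44 to 10.82 in muscle and at most 6.05 elsewhere). Igf1r, whose probe sets can also bind the transgene's transcript, was at 8.53, 8.32 and 8.51 in MKR muscle against 6.75, 6.14 and 6.42 in WT muscle. The MKR fat array of replicate 1 stood apart: 14 of 15 measured epididymis genes were above every other fat array there, such as Lcn8 at 12.47 against 4.52 to 4.92, and Igf1r was at 9.07. It is called MKR fat 1 below, and most differences and counts of fat that use it are given also without it. Tests in liver and muscle use MKR fat 1 only through the variance that all groups share in the fit. They are given with that array unless stated.

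The stretch near the transcription start of each gene is where these factors act. The promoters of the 3 members that led in fat or liver (Mki67, Top2a and Rrm2) are therefore shown. Beside them are that of Cdk1, which holds every motif searched, and that of Birc5, which holds none. RefSeq sequences on GRCm38.p6 covered 8 of the 10 genes and did not include Ccna2 and Aurkb. Each line below gives the 250 bases before the start, 5′ to 3′ on the gene's strand, with motif matches in capitals. The windows are chr7:135716380-135716629 on the minus strand for Mki67, chr11:99024190-99024439 on the minus strand for Top2a, chr10:69352913-69353162 on the minus strand for Cdk1, chr12:24708004-24708253 on the plus strand for Rrm2 and chr11:117848987-117849236 on the plus strand for Birc5.
Mki67: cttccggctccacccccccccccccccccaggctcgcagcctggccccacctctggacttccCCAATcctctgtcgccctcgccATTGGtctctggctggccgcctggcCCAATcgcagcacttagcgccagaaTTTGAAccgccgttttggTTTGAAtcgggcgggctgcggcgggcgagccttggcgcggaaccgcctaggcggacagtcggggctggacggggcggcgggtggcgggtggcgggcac
Top2a: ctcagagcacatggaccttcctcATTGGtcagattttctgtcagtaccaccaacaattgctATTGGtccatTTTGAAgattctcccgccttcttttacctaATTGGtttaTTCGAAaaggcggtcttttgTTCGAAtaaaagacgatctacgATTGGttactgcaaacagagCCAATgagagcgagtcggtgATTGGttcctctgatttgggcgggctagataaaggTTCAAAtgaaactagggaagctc
Cdk1: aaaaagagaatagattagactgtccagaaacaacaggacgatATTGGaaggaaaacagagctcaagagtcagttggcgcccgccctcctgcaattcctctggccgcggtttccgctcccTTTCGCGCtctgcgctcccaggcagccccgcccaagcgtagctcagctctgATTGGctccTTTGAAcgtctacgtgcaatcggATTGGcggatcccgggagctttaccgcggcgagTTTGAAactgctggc
Rrm2: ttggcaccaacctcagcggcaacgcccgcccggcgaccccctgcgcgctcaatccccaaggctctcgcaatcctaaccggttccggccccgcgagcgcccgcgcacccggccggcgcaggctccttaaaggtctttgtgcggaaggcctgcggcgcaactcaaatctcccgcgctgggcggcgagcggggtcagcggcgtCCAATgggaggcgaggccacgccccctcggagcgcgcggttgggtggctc
Birc5: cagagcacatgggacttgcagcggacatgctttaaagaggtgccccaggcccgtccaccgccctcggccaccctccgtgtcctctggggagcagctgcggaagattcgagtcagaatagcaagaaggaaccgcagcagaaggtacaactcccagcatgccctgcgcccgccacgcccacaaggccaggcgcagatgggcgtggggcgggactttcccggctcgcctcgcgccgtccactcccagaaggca

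Both strands were searched for the CHR (TTTGAA or TTCGAA), the CCAAT box (CCAAT) and an E2F site (TTTCCCGC, TTTCGCGC, TTTGCCGC or TTTGGCGC), in 300 bases that end 50 bases after the start. Matches of different motifs did not overlap. A CHR was present in 5 of 8 promoters (Mki67, Top2a, Ccnb2, Cdk1 and Bub1), against 19.2% of all 32851 mouse promoters of the same length. Bub1 is counted through a single match that lies after the start, with its first base at 15. Ccnb2 has a match at -167 and another after the start, at 5. CCAAT boxes were present in 7 of 8, all but Birc5, against 37.4% of all promoters, and 5 of 8 held both motifs, against 7.5%. Mki67 had 3 CCAAT boxes upstream of 2 CHR matches, whose first bases lie at -116 and -98 from the start. Top2a had 6 CCAAT boxes, 5 of them on the reverse strand (ATTGG), and 4 CHR matches. Cdk1 alone had an E2F match (TTTCGCGC at -131), which 2.3% of all promoters hold, and Rrm2 had a single CCAAT box at -50 and no CHR. A match is a description of the letters, not evidence of binding.

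Mki67 encodes a protein that coats the surface of mitotic chromosomes and is the standard marker of cycling cells. Its level was 6.0, 6.50 and 6.19 in MKR fat (replicates 1 to 3), against 5.45, 5.27 and 5.48 in WT fat. All 3 MKR fat arrays, MKR fat 1 included, lay above all 15 other arrays, whose highest value was that of WT fat replicate 3. On average MKR fat was at 6.23 ± 0.25 and WT fat at 5.40 ± 0.11 (SD, n = 3 each), a difference of 0.83 on the log2 scale, and of 0.95 without MKR fat 1. Elsewhere the group means lay between 5.11 and 5.19, and the arrays of these 4 groups overlapped throughout, from 4.97 to 5.29.

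Top2a encodes topoisomerase II alpha, which untangles sister chromatids. It was at 6.15, 6.17 and 5.56 in MKR fat against 5.28, 5.15 and 5.39 in WT fat. The groups did not overlap, although MKR fat replicate 3 was only just above the WT arrays, and the difference was 0.69, or 0.59 without MKR fat 1. Both fat groups lay above the other groups in the mean (MKR liver 5.04 ± 0.31, WT liver 4.72 ± 0.19, MKR muscle 4.74 ± 0.14, WT muscle 4.84 ± 0.28).

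The cyclins and their kinase were less uniform. Ccna2 encodes cyclin A2, which drives S phase and entry into mitosis, and was at 6.15, 6.51 and 6.40 in MKR fat against 6.0, 5.83 and 6.08 in WT fat. The groups did not overlap, with a difference of 0.38, or 0.49 without MKR fat 1. When the median of its 9 probe sets was used in place of their mean, the difference was 0.98. For Ccnb2, which encodes cyclin B2, MKR fat was at 5.71 ± 0.05 and WT fat at 5.47 ± 0.24, and the highest WT array (5.73) lay within the MKR range of 5.66 to 5.74. Cdk1, the kinase that these cyclins activate, was at 4.95, 4.82 and 5.21 in MKR fat and 4.67, 4.77 and 4.88 in WT fat, so that the groups overlapped as well. The differences were 0.25 for Ccnb2 and 0.22 for Cdk1, or 0.23 and 0.24 without MKR fat 1.

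Among the mitotic regulators, Bub1, a kinase of the spindle checkpoint, was at 4.69, 4.78 and 4.80 in MKR fat against 4.53, 4.31 and 4.60 in WT fat, without overlap, a difference of 0.28, or 0.31 without MKR fat 1. Aurkb, the kinase of the chromosomal passenger complex, was at 5.25, 5.49 and 5.41 in MKR fat against 5.05, 5.19 and 5.25 in WT fat. Its groups touched through MKR fat 1 alone, and the difference was 0.22, or 0.29 without that array, when the groups were apart. Birc5 encodes survivin, another subunit of the same complex, and was the single member with a lower mean in MKR fat: 4.81 ± 0.16 against 4.89 ± 0.15 in WT fat, with overlapping arrays and a difference of -0.08 with or without MKR fat 1. Rrm2 encodes the small subunit of ribonucleotide reductase, which makes deoxynucleotides for DNA synthesis. It was at 5.24, 5.25 and 5.01 in MKR fat against 4.71, 5.01 and 4.93 in WT fat, a difference of 0.29 (0.25 without MKR fat 1), where MKR replicate 3 exceeded WT replicate 2 only beyond the second decimal.

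**Figure D1:**
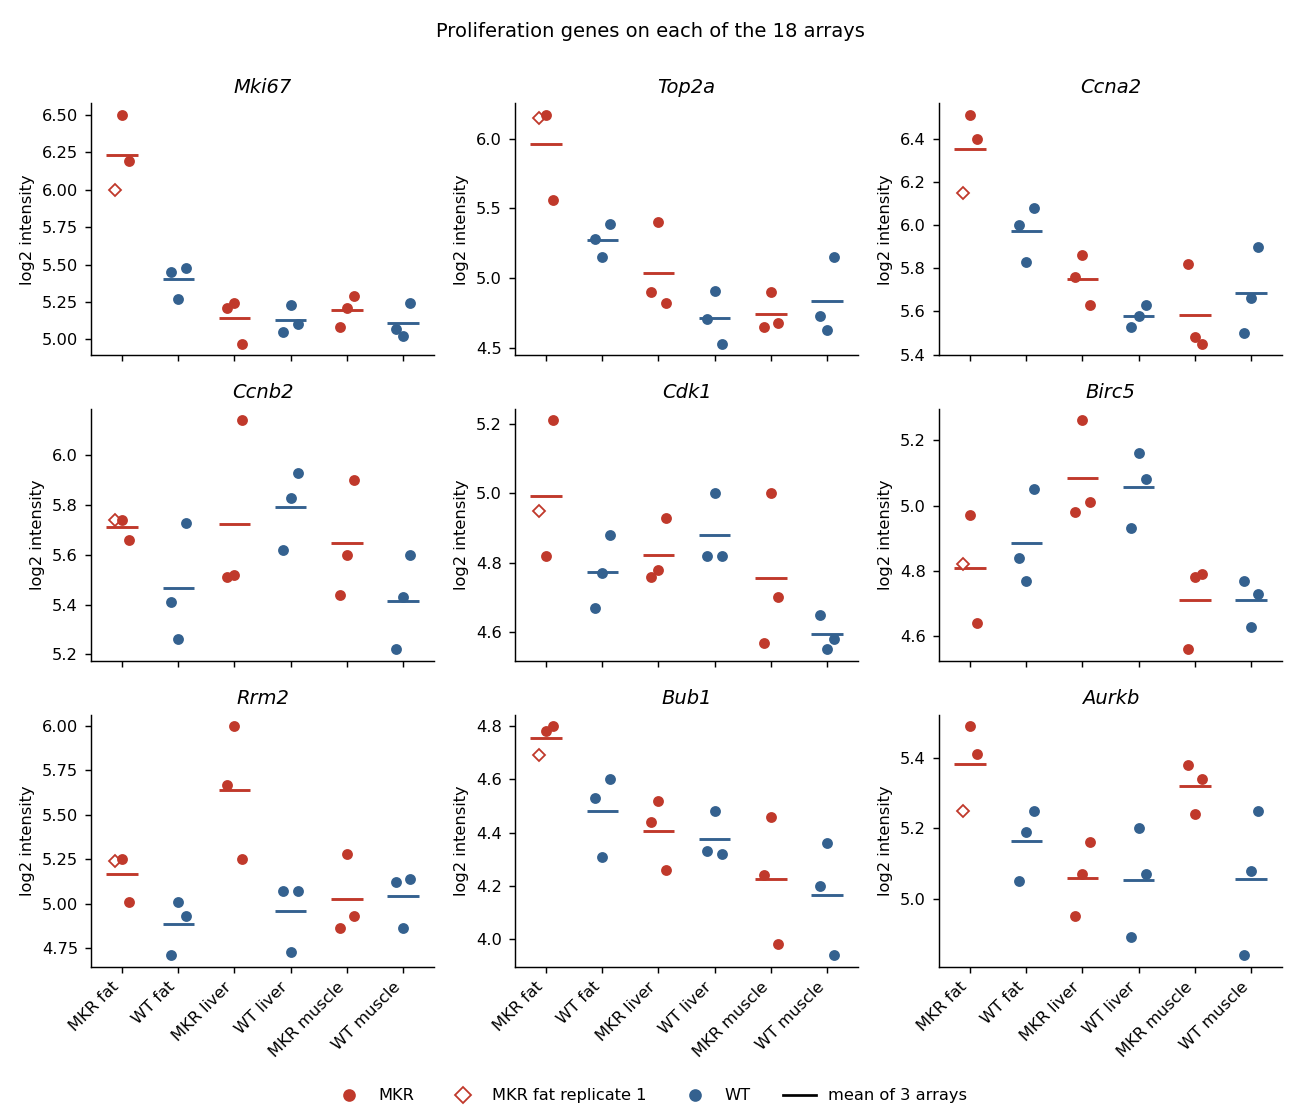
Each panel plots 1 gene, with log2 intensity on the y axis and the 6 groups on the x axis; points are single arrays, lines are means of 3 arrays, and the open diamond is MKR fat replicate 1. Mki67 is highest in the 3 MKR fat arrays (6.0 to 6.50), while Rrm2 has its highest group in MKR liver (5.64 ± 0.38, SD).

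Over the list in fat, 8 of 9 members were higher in the mean in MKR mice and the median difference was 0.28, beside a median of 0.00 over all genes. Without MKR fat 1 it was 0.29, beside 0.02 over all genes. In 5 of 9 members (Mki67, Top2a, Ccna2, Rrm2 and Bub1) all MKR arrays were above all WT arrays, which held for 5.85% of all genes, and without MKR fat 1 in 6 of 9 against 16.2%. At an adjusted p under 0.05 in limma 1 of 9 members passed, Mki67, the gene that chose the list, beside 0.0393% of all genes (8 of 20358). All these counts come from the contrast on which the list was chosen, so they are no evidence about the members.

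Single probe sets show how evenly a gene's value was carried. All 16 Mki67 probe sets had a higher mean in MKR fat, by 0.28 to 1.65, against 49.4% of all probe sets, and in 10 of the 16 the arrays did not overlap, against 5.99%. Without MKR fat 1 all 16 were higher too, against 51.5% of all probe sets, and 12 did not overlap, against 13.8%. Of the 40 Top2a probe sets 34 were higher (33 without MKR fat 1), with differences between -1.32 and 2.96. The -1.32 belongs to the brightest of them, which was at 8.10, 8.73 and 5.46 in MKR fat and 9.03, 8.16 and 9.06 in WT fat. The brightest probe set was lower in MKR fat also for Birc5 (-0.36), Rrm2 (-0.32) and Ccnb2 (-0.09). For Mki67 (0.93), Aurkb (0.74), Ccna2 (0.31), Cdk1 (0.10) and Bub1 (0.03) it was higher. A single Top2a probe set lies outside the run of neighbouring identifiers, and leaving it out kept the difference at 0.69. Over the 9 members 109 of 134 probe sets (81.3%) were higher in MKR fat, and 108 (80.6%) without MKR fat 1, while Birc5 had 2 of 6 either way. In liver and muscle the same count was 73 (54.5%) and 71 (53.0%) of 134.

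Markers of other cell types were set beside these values in the same 6 arrays. Of 11 macrophage markers 6 were higher in the mean in MKR fat, and 11 of 11 without MKR fat 1. Their mean level was 7.01 on MKR fat 1 and 7.88 and 7.93 on the other MKR fat arrays, against 7.45 to 7.88 in WT fat. Progenitor and fibroblast markers were higher for 6 of 8 with or without MKR fat 1, but not for the same 6. Without it Pdgfra went from 0.212 to -0.259 and Dpp4 from 0.49 to -0.015. Pdgfrb went from -0.075 to 0.22 and Dcn from -0.079 to 0.082. The mean levels of 7.26 to 7.40 in MKR fat and 7.05 to 7.16 in WT fat do not overlap. Of the single markers 1 of 8 had all MKR fat arrays above all WT fat arrays, beside 5.85% of all genes. Lymphocyte markers were higher for 8 of 11, and for 10 of 11 without MKR fat 1, with levels of 4.96 to 5.28 in MKR fat and 5.03 to 5.25 in WT fat. Epididymis markers were higher for 15 of 15, and for 12 of 15 without MKR fat 1, with a mean level of 10.31 on that array and 4.77 and 4.98 on the other MKR fat arrays, against 4.64 to 4.84 in WT fat. Endothelial markers were higher for 0 of 6 and, without MKR fat 1, for 5 of 6. Skeletal muscle fibre markers were higher for 6 of 6 with or without it, with levels of 5.33 to 5.60 in MKR fat and 5.13 to 5.27 in WT fat, far below their level in muscle. Adipocyte markers were higher for 1 of 6, and for 5 of 6 without MKR fat 1, at 9.17 on MKR fat 1 and 10.64 and 10.72 on the other MKR fat arrays, against 10.41 to 10.55 in WT fat. The mean of the 9 proliferation genes was 5.44 on MKR fat 1 and 5.58 and 5.43 on the other MKR fat arrays, against 5.06 to 5.27 in WT fat. The part of these cell types in the fat values was not tested.

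**Figure D2:**
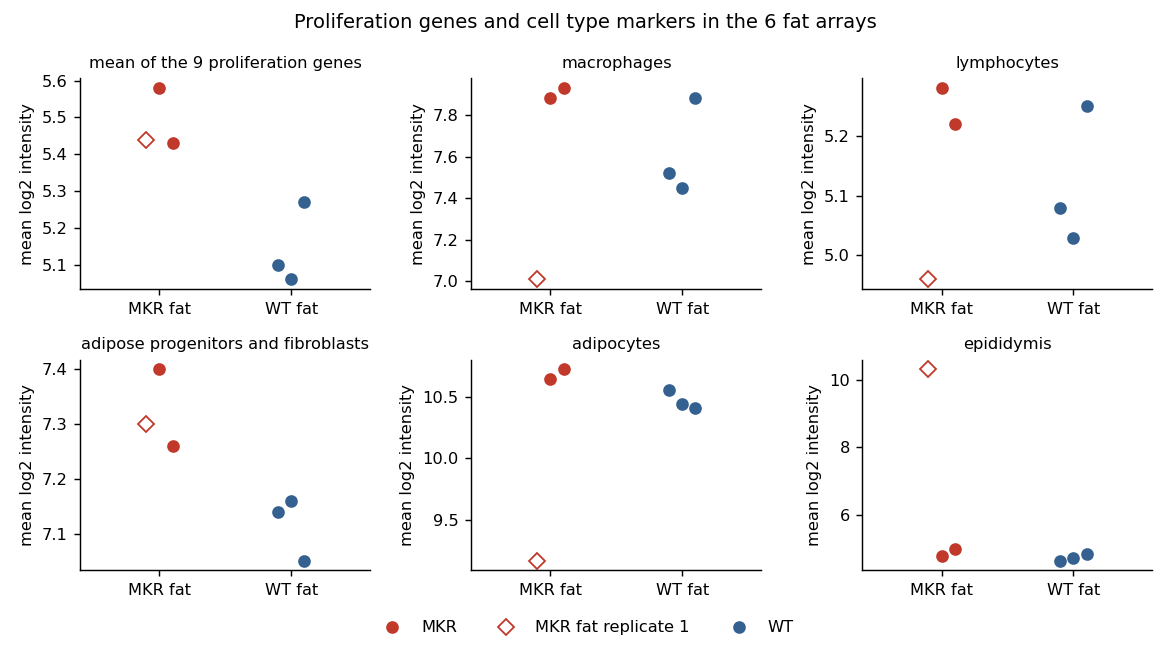
Mean log2 intensity (y axis) of the 9 proliferation genes and of 5 marker lists in the 6 fat arrays, MKR at the left and WT at the right; points are arrays and the open diamond is MKR fat replicate 1. This array has the lowest macrophage level (7.01) and the highest epididymis level (10.31) of the 6, while its proliferation mean (5.44) is between those of the other MKR arrays.

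In liver no member was called by limma, where 0.0344% of all genes were (7 of 20358). At an unadjusted p under 0.05 there was 1 of 9 members, Rrm2, beside 5% of all genes. Without MKR fat 1 in the fit again no member was called in liver, beside 0.0835% of all genes (17 of 20358). Rrm2 was again the single member at an unadjusted p under 0.05, beside 6.61%. Rrm2 was at 5.67, 6.0 and 5.25 in MKR liver against 5.07, 4.73 and 5.07 in WT liver. All MKR arrays were above all WT arrays, and MKR liver replicate 2 had the highest Rrm2 value of the whole series. The difference was 0.68 (95% interval 0.32 to 1.04, limma adjusted p = 0.333, or 0.201 without MKR fat 1 in the fit). Of the 9 Rrm2 probe sets 8 were higher in MKR liver, against 51.3% of all probe sets. Ccna2 did not overlap either, at 5.76, 5.86 and 5.63 in MKR liver against 5.53, 5.58 and 5.63 in WT liver. There replicate 3 of MKR exceeded replicate 3 of WT only beyond the second decimal. The difference was smaller, at 0.17 (interval -0.10 to 0.45, limma adjusted p = 1.00). Such a non-overlap in the upward direction was found in 4.11% of all genes. Top2a averaged 5.04 ± 0.31 in MKR liver and 4.72 ± 0.19 in WT liver with overlapping arrays (difference 0.32, interval -0.08 to 0.72). For Mki67 the difference was 0.02 with an interval of -0.25 to 0.28. Of its 16 probe sets 6 were higher in MKR liver, among them the brightest, by 0.75 and without overlap. The other 5 members differed by -0.07 to 0.03, and the median over the list was 0.03, beside -0.01 over all genes. Kupffer cell markers were lower in MKR liver for 4 of 4 (mean level 7.12 to 7.27, against 7.41 to 7.65 in WT liver), and their part in these values was not tested.

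Skeletal muscle, where the transgene acts, gave no called member either, beside 0.201% of all genes (41 of 20358). The smallest p belonged to Aurkb, at 5.38, 5.24 and 5.34 in MKR muscle against 4.84, 5.08 and 5.25 in WT muscle. MKR muscle replicate 2 was just below the highest WT array, so the groups overlapped, and the difference was 0.27 (interval 0.02 to 0.51, limma adjusted p = 0.432). It was the single member at an unadjusted p under 0.05, beside 10.5% of all genes. Without MKR fat 1 in the fit again no member was called in muscle, beside 0.712% of all genes (145 of 20358). Aurkb was again the single member at an unadjusted p under 0.05, beside 13.4%, with a limma adjusted p of 0.319. Differences of the remaining members ranged from -0.10 for Ccna2 to 0.23 for Ccnb2. Mki67 averaged 5.19 ± 0.11 in MKR muscle and 5.11 ± 0.12 in WT muscle (SD, n = 3 each), a difference of 0.08 with an interval of -0.18 to 0.34. Of its 16 probe sets 9 were higher in MKR muscle, while the brightest differed by -1.04, without overlap. The median of the list was 0.06, beside 0.00 over all genes. Mean macrophage marker levels in muscle were 5.75 to 5.95 in MKR mice and 5.99 to 6.36 in WT mice, although 3 of 11 markers were higher in MKR muscle. Adipocyte markers were higher in MKR muscle for 6 of 6 (5.57 to 6.29, against 5.47 to 5.93 in WT muscle). Lymphocyte markers were higher for 9 of 11 (4.84 to 4.92, against 4.69 to 4.81). Neutrophil markers were higher for 5 of 5 (4.72 to 4.77, against 4.48 to 4.67). Satellite cell markers were higher for 4 of 4 (5.95 to 6.04, against 5.62 to 6.02), and Kupffer cell markers for 0 of 4. The part of these cell types was not tested either.

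The MKR effect was then set between muscle and liver, the pair of tissues that had no part in the choice of the list. No member differed between these tissues at an adjusted p under 0.05 in limma, beside 0.0737% of all genes, and 1 of 9 did at an unadjusted p, beside 10.3%. This was Rrm2, whose effect was smaller in muscle by 0.70 (interval of the change -1.21 to -0.19, limma adjusted p = 0.357). Without MKR fat 1 in the fit its limma adjusted p was 0.2365, and again no member was called. MKR muscle was at 4.86, 5.28 and 4.93 and WT muscle at 5.12, 4.86 and 5.14, with overlap. Of the 9 Rrm2 probe sets 3 were higher in MKR muscle and 8 in MKR liver. The brightest went the other way, with differences of 1.04 in muscle, without overlap, and 0.68 in liver. Under the alternatives listed below the change of the gene stayed negative (-0.98 to -0.28). With 3 mice against 3, an exact permutation test of a single gene could not go below p = 0.1, so the limma intervals carry the comparison.

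**Figure D3:**
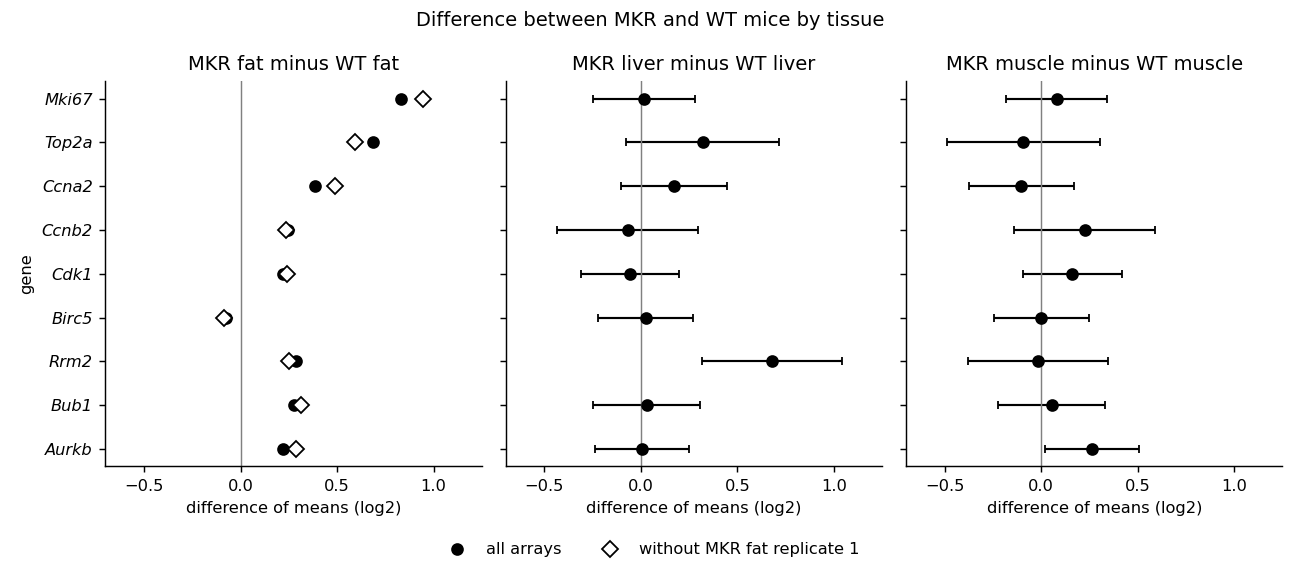
Difference between the MKR and WT means (x axis, log2) of each gene in fat, liver and muscle; bars in liver and muscle are 95% intervals of the limma fit, and fat has none because its values chose the list. The interval of Rrm2 in liver (0.32 to 1.04) and that of Aurkb in muscle (0.02 to 0.51) are the ones that exclude 0 before adjustment over all genes.

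Between tissues, the fat groups hold the values on which the list was chosen, so their contrasts are descriptions. For Mki67, Top2a, Ccna2 and Bub1 the order of group means began with MKR fat and then WT fat, which did not overlap, while the arrays of each later pair of neighbours did. In WT mice Top2a was at 5.27 ± 0.12 in fat and 4.72 ± 0.19 in liver, a difference of 0.56, and Ccna2 was at 5.97 ± 0.13 in fat and 5.58 ± 0.05 in liver, a difference of 0.39 (SD, n = 3 each). In limma 2 of 9 members, these genes, passed an adjusted p of 0.05 as higher in WT fat than in WT liver, beside 19% of all genes, a share near the background. The number was 0 without WT fat replicate 1 or 3 or WT liver replicate 1, and 1 without WT liver replicate 2 or 3. Between WT fat and WT muscle 0 of 9 passed, beside 37.8% of all genes in either direction, and 4 of 9 had an unadjusted p under 0.05, beside 45.4%. When MKR fat 1 was left out of the fit, 1 of 9 passed the adjusted p of 0.05, beside 42% of all genes. It was also 1 of 9 with the arrays of WT fat and WT muscle alone, with the mouse as a fixed block or without it. Nothing is read from the counts under these alternatives.

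In MKR mice Mki67 was higher in fat than in liver by 1.09 (1.21 without MKR fat 1), Top2a by 0.92 (0.83), Ccna2 by 0.60 (0.71), Bub1 by 0.35 (0.38) and Aurkb by 0.32 (0.39). Rrm2 had a difference of -0.47 (-0.51 without MKR fat 1). Counted by an adjusted p under 0.05 in limma, these were 5 of 9 members higher, beside 18.6% of all genes, and 1 of 9 lower, beside 16.9%, with or without MKR fat 1. With the arrays of these groups alone 3 of the 6 were left, Mki67, Top2a and Ccna2, with the mouse as a block or without it. Between MKR fat and MKR muscle the differences were 1.04 for Mki67 (1.15 without MKR fat 1), 1.22 for Top2a (1.12), 0.77 for Ccna2 (0.88) and 0.53 for Bub1 (0.57), which made 4 of 9 members higher, beside 18% of all genes. Nothing is read from these shares, since the MKR fat level of Mki67 chose the list.

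Liver and muscle had no part in the choice of the list. Birc5 was higher in liver in both genotypes: MKR liver was at 5.08 ± 0.16 and MKR muscle at 4.71 ± 0.13 (difference 0.37, interval 0.12 to 0.61, limma adjusted p = 0.0173), and WT liver was at 5.06 ± 0.12 and WT muscle at 4.71 ± 0.07 (difference 0.35, interval 0.10 to 0.59, limma adjusted p = 0.0247). Its arrays did not overlap between these tissues in either genotype. On the brightest Birc5 probe set they overlapped in both. It was at 6.65, 6.56 and 6.20 in MKR liver against 6.10, 6.39 and 6.52 in MKR muscle. In WT mice it was at 6.03, 6.73 and 6.81 in liver against 6.42, 6.12 and 6.87 in muscle. The mean level of Birc5 over all arrays lay in the lowest quartile of genes. Rrm2 was higher in MKR liver than in MKR muscle, by 0.62 (interval 0.25 to 0.98, limma adjusted p = 0.00806), while the difference between WT liver and WT muscle was -0.08 (interval -0.44 to 0.28). The brightest Rrm2 probe set was at 7.63, 7.86 and 7.41 in MKR liver against 6.51, 6.59 and 7.49 in MKR muscle. In WT mice it was at 7.10, 6.25 and 7.51 in liver against 6.44, 5.56 and 5.48 in muscle. With bright probe sets only, the WT difference of Rrm2 was positive and called. With the mean of all probe sets the calls were 2 of 9 members in MKR mice, beside 18.6% of all genes higher in liver, and 1 of 9 in WT mice, beside 18.9%, shares near the background. The same members were called without MKR fat 1 in the fit. The WT call was lost without replicate 2 or 3 of WT liver or of WT muscle. Both MKR calls were lost without MKR liver replicate 2, and the Birc5 call without MKR muscle replicate 1. Ccnb2 was at 5.79 ± 0.16 in WT liver and 5.42 ± 0.19 in WT muscle (difference 0.38, limma adjusted p = 0.0992). With the arrays of these groups alone its limma adjusted p was 0.0469, and with the mouse as a fixed block in addition 0.0231. For Ccnb2, Cdk1, Birc5, Rrm2 and Aurkb every pair of neighbours in the order of the 6 group means overlapped.

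As a description over the 18 arrays, which share tissues and mice, Pearson's r with the mean of the other 8 members was 0.84 for Top2a, 0.82 for Mki67, 0.77 for Ccna2 and 0.73 for Bub1. It was 0.53 for Cdk1 and 0.46 for Aurkb, and it was 0.19 for Birc5, 0.18 for Ccnb2 and 0.15 for Rrm2. Without MKR fat 1 these values were 0.83 for Top2a, 0.79 for Mki67, 0.75 for Ccna2, 0.70 for Bub1, 0.49 for Cdk1, 0.46 for Aurkb, 0.24 for Birc5, 0.15 for Ccnb2 and 0.12 for Rrm2. Mki67, Top2a and Ccna2 were the pairs most alike, with r of 0.86 to 0.89 over 18 arrays and 0.88 to 0.89 over 17. Over all 36 pairs the median r was 0.28, and after subtraction of the group means it was 0.12, with 27 pairs above 0. Within groups the order of pairs was another one: Top2a and Birc5 had the highest r (0.71), followed by Mki67 and Birc5 (0.62), while Mki67 and Top2a had 0.49. Of the 3 MKR mice, replicate 2 had the highest value for 6 of 9 members in fat and for 6 of 9 in liver, and for 4 of 9 in muscle. Among the WT arrays replicate 3 was highest for 8 of 9 members in fat, 2 of 9 in liver and 6 of 9 in muscle.

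The genes most like the mean of the members over the 18 arrays were Dbf4 (r = 0.90), Ddias (0.87), Cenpf (0.87), Aldh3b1 (0.87) and Il4ra (0.86). Dbf4, the activator of the CDC7 kinase at replication origins, was at 6.14, 6.13 and 5.76 in MKR fat against 5.48, 5.46 and 5.63 in WT fat. Such genes were picked by likeness to the members over arrays that include fat, so their fat levels are no independent evidence. Cenpf encodes a kinetochore protein and Ddias an inhibitor of apoptosis after DNA damage, while Aldh3b1 is an aldehyde dehydrogenase and Il4ra the receptor chain for interleukins 4 and 13. Over the 17 arrays without MKR fat 1 the 5 genes were Bub1b (0.90), Dbf4 (0.88), Aldh3b1 (0.88), Krt7 (0.88) and Slpi (0.87). Bub1b is the spindle checkpoint partner of Bub1, whereas Krt7, an epithelial keratin, and Slpi, a secreted protease inhibitor, are not cell cycle genes.

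Other cell cycle genes were described from lists that hold none of the 10 members. Of 48 measured genes of G2 and mitosis, 44 were higher in the mean in MKR fat than in WT fat, with a median difference of 0.16, beside 0.00 over all genes. Without MKR fat 1 the count was 46 of 48 and the median 0.19. No gene of the list was called in fat, and 13 of 48 were higher at an unadjusted p under 0.05, beside 7.78% of all genes in either direction, and 10 of 48 without MKR fat 1, beside 9.98%. Nusap1, which binds spindle microtubules, had the smallest p, at 5.46, 5.79 and 5.54 in MKR fat against 5.19, 5.06 and 5.21 in WT fat, followed by Ncapg, a condensin subunit (difference 0.37, or 0.30 without MKR fat 1). These genes share arrays and biology with Mki67, so their direction in fat is no independent evidence.

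Earlier phases of the cycle were described in the same way. Among 25 genes of G1/S and DNA replication 13 were higher in MKR fat, with a median of 0.02, and 17 without MKR fat 1, with a median of 0.04. None was called or had an unadjusted p under 0.05 in limma, with or without that array. Chaf1a and Chaf1b, subunits of the chromatin assembly factor, had the smallest p, with differences of 0.17 and 0.21 (0.15 and 0.01 without MKR fat 1). For nucleotide supply 2 of 5 were higher, and 1 of 5 without MKR fat 1, with a median of -0.09 in the full set: Dut, which removes dUTP, differed by 0.22 (0.04 without MKR fat 1) and Tk1, thymidine kinase, by -0.16 (-0.10 without it). Of the G1 cyclins and their kinases 3 of 6 were higher (2 of 6 without MKR fat 1), and Ccnd2, cyclin D2, had the smallest p (difference -0.55, and -0.17 without MKR fat 1). The list of inhibitors and DREAM subunits had 8 of 16 higher with a median of 0.02 (8 of 16 and 0.04 without MKR fat 1), where Rbl2, a pocket protein of the DREAM complex, differed by -0.22 (-0.34 without MKR fat 1) and Cdkn2c, a CDK4 and CDK6 inhibitor, by -0.45 (-0.23 without it).

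In liver 37 of the 48 genes of G2 and mitosis were higher in MKR mice, with a median of 0.05. At an unadjusted p under 0.05 there were 3 of 48, all higher, near the 5% of all genes. Spc25, a subunit of the NDC80 kinetochore complex, had the smallest p of the list, at 6.03, 5.87 and 5.97 in MKR liver against 5.42, 5.42 and 5.26 in WT liver. The difference of 0.59 had a limma adjusted p of 0.0669, and of 0.0466 in the fit without MKR fat 1. Ect2, which sets up the cleavage furrow, was at 5.03, 5.49 and 6.20 in MKR liver against 4.98, 4.76 and 4.76 in WT liver, without overlap but with a wide spread among MKR mice (difference 0.74, adjusted p = 0.508). Myc, a transcription factor that drives entry into the cycle, was at 7.07, 8.70 and 8.75 in MKR liver against 6.64, 7.20 and 5.59 in WT liver, with overlap, and the difference of 1.70 had an adjusted p of 0.375. Tyms and Rrm1 had the smallest p of the list of nucleotide supply. These genes, which like Rrm2 serve deoxynucleotide synthesis, differed by 0.28 and 0.20 in liver, with adjusted p of 1.00 each. Chaf1a (0.25) and Mcm4 (0.27), and Lin54 (0.31) and Lin37 (-0.30) of the DREAM complex, had the smallest p of their lists, and Cdk6 differed by 0.39. No gene of the 5 lists was called in liver with all arrays.

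In muscle 23 of 48 genes of G2 and mitosis were higher in MKR mice, with a median of 0.00. Prc1, which bundles midzone microtubules, differed by -0.31 and Melk, a mitotic kinase, by 0.21, and neither was called. Cdkn1a, the p53-induced CDK inhibitor p21, was at 6.04, 6.81 and 5.99 in MKR muscle against 6.57, 6.82 and 7.36 in WT muscle, with overlap (difference -0.64, limma adjusted p = 0.435). E2f4, the E2F factor of the DREAM complex, differed by -0.24 with an adjusted p of 0.413, and Rrm1 by -0.42 with 0.386. Mcm4 (-0.27), Cdk2 (0.20), Dtymk (0.20), Ccnd3 (-0.14) and Cdk6 (-0.26) had the smallest p of the remaining lists. In muscle, too, 0 genes of the 5 lists were called.

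**Figure D4:**
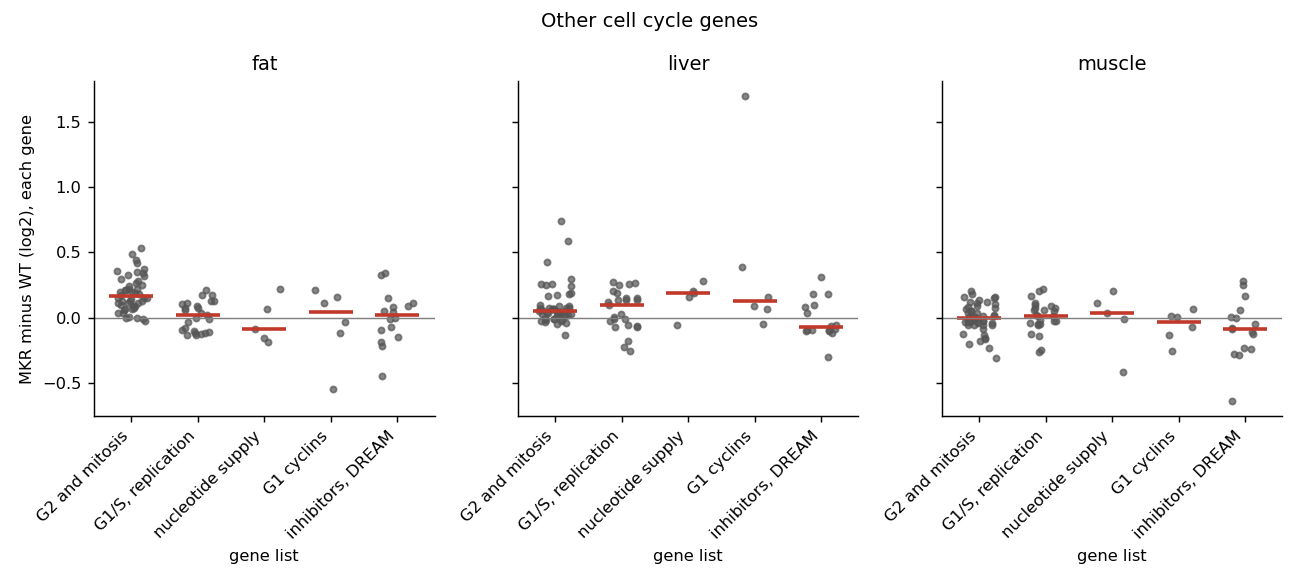
Each point is 1 cell cycle gene outside the 10 members, with the difference between MKR and WT means on the y axis (log2), and red lines are list medians, in fat, liver and muscle. Among the 48 genes of G2 and mitosis 44 lie above 0 in fat, 37 in liver and 23 in muscle.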

How the data were processed

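RNA of fat, liver and skeletal muscle of 3 MKR and 3 WT mice was hybridised to 18 Affymetrix Mouse Gene 1.0 ST arrays. The authors normalized the arrays by RMA in Partek 6.3 and deposited log2 values. These range from 1.52 to 3.82, where log2 intensities transformed to log2 again would lie, so 2 to the power of each deposited value (2.87 to 14.15) was used as log2 intensity. This scale was inferred from the values. A gene's value was the mean of its probe sets with 1 symbol (4672 with several and 24609 with none were left out), and 2743 older symbols were updated through synonyms. Groups were compared in limma (version 3.58.1, R version 4.3.3) by a model holding 1 mean per group over all 18 arrays, eBayes and Benjamini-Hochberg adjustment over 20358 genes at 0.05. Raw signals and detection calls are not analysed here, so whether dim probe sets rose above background is unknown, and the number of arrays limits the precision. Replicates are separate mice. The labels tie the tissues to a mouse, and deviations from the group means correlated by -0.12 to 0.20 between tissues of a mouse. The fit was checked on simulated data. Python 3.11.15 and matplotlib 3.10.9 served for the figures.

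The 10 members, the lists and the tests were chosen with earlier results of these data known. Named genes are the members, the genes of each cell cycle list called with the smallest p (up to 3) or otherwise the 2 with the smallest p, the 5 genes most correlated with the members' mean (predicted and RIKEN genes left out), the label checks Igf1r, Alb, Ckm and Adipoq, and markers at the ends of a list. Alternatives were the arrays of the compared groups alone, the mouse or replicate number as a block, the median of probe sets, bright probe sets only, omission of dim genes, other normalization, the deposited scale, other moderation, array weights and omission of each array. The files matched no columns of other samples.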

Additional observations from a re-analysis of the deposited data

How the results depend on the processing

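Signal limits the comparison for dim members, since 6 of 9 stayed when genes in the lowest quartile were left out. The members removed were Cdk1, Birc5 and Bub1, so counts without dim genes, here and below, do not test them. Counts in fat describe the contrast that chose the list and bear on no member. There, members called numbered 0 with the arrays of the compared groups only, 0 with probe sets above the median only and 3 with array weights (Mki67, Top2a, Ccna2), against 1, and with each array left out in turn 0 to 1 (0 without MKR fat 2, WT fat 1 or WT fat 2). With the median of probe sets the 1 member called was Ccna2, not Mki67. Over all genes the number called in fat moved as well, from 8 with all arrays to 31 without MKR fat 1. Counts of members under different settings, here and below, are therefore not read against each other. The median over the members was 0.22 to 0.36 in fat under all alternatives on the log2 intensity scale. With probe sets above the median only it moved to 0.20 in liver and to -0.13 in muscle, against 0.03 and 0.06, and with arrays left out it ran from -0.035 (without MKR muscle 2) to 0.077 (without MKR muscle 1) in muscle. In 0 alternatives was a member called in liver, in muscle or for muscle minus liver.

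Between tissues, where contrasts with a fat group are again descriptions, members called for WT fat against WT liver were 1 with centred arrays, against 2, and 0 to 2 with arrays left out (0 without WT fat 1, WT fat 3 or WT liver 1, and 1 without WT liver 2 or 3). For WT fat against WT muscle they were 1 with the arrays of these groups only, 1 with the mouse as a block, 1 with bright probe sets and 2 with array weights, against 0, and 0 to 2 with arrays left out (2 without WT muscle 3, and 1 without any 1 MKR fat array, WT fat 2 or WT muscle 2). For WT liver against WT muscle they were 2 with the arrays of these groups only, with the mouse or the replicate number as a fixed replicate block, with the median of probe sets and with the deposited scale, and 0 without dim genes, against 1, and 0 to 2 with arrays left out (0 without WT liver 2 or 3 or WT muscle 2 or 3, and 2 without MKR muscle 2, MKR fat 3 or MKR liver 3). For MKR fat against MKR liver they were 3 with the arrays of these groups only, with the mouse as a block and with bright probe sets, against 6, and 3 to 6 with arrays left out (3 without MKR liver 1 or MKR fat 3). For MKR liver against MKR muscle they were 1 with bright probe sets and 1 without dim genes, against 2, and 0 to 2 with arrays left out (0 without MKR liver 2 and 1 without MKR muscle 1). Rrm2 reversed with bright probe sets, to 0.53 for WT fat against WT muscle and 0.58 for WT liver against WT muscle, both called, against -0.16 and -0.08. The cause was not tested. Replicate numbers of MKR and WT belong to different mice and share only a number (correlations of -0.31 to 0.29), and with that number as a block 1 member was called in fat, 0 in liver and 0 in muscle, as without it.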
